A study of Mus musculus with 21 samples.

Results

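Cx3cr1-low M2 macrophages were examined in regenerating muscle of aged mice. The population comprised the cells to which the authors gave the name M2 Macro. (Cx3cr1_lo) after integrating all samples with Harmony, and it held 7165 of 87822 cells (8.16%). The name sets it apart from a related population named M2 Macro. (Cx3cr1_hi), with 6161 cells. Cx3cr1 encodes the fractalkine receptor, a chemokine receptor whose level is low on inflammatory monocytes and high on patrolling monocytes of the blood. The paper, however, describes the cells that it names patrolling monocytes as negative for Cx3cr1. That name therefore does not stand for a high Cx3cr1 level here. Damaged muscle is invaded by neutrophils and by monocytes, which become macrophages that first clear debris and later favour the growth and fusion of muscle progenitors. "M2" is a common name for macrophages of this later, repair-associated kind.

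The tissue was tibialis anterior muscle of female C57Bl/6J mice aged 20 months, with 1 mouse in each of 21 samples. Notexin, a snake-venom phospholipase that destroys muscle fibers, was injected to start regeneration. Muscle was taken from 4 mice without injury, and from 4 mice on day 1, 3 on day 2, 4 on day 3.5, 3 on day 5 and 3 on day 7 after it (days post-injury, dpi in the figures). The mice of a group are named here by the letters of their labels. The age and sex were the same in every group, so no difference by age or sex was examined.

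The expression of single genes was not used here, so the macrophage markers Adgre1 and Itgam were not checked in these cells, and neither was the level of Cx3cr1 itself. All 7165 cells fell in the myeloid class of the same Harmony labels, which is a coarser form of their name and no check of what they are. A further label, in a column named prefilter, called 88.0% of them M2 macrophages, 7.86% inflammatory monocytes and 4.02% patrolling monocytes. Among the 210 pairs of libraries, at most 1 cell barcode of the population was shared, and 6 pairs shared any. The authors had removed doublets. Of these cells 2.85% had fewer than 750 genes, compared with 6.42% of all cells.

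Cx3cr1-low M2 macrophages were scarce in uninjured muscle and abundant from the first day after injury until day 5. In uninjured mice A, B, C and D they made up 0.309%, 0.674%, 0.457% and 0.205% of all cells, from 7 of 2267, 23 of 3413, 23 of 5029 and 2 of 974 cells. The exact 95% Clopper-Pearson interval, which covers counting error only, reached from 0.0249% to 0.740% in mouse D and its upper limit was highest in mouse B, at 1.01%. On day 1 the share was 10.6% in mouse A, 4.85% in B, 8.41% in C and 10.1% in D. Every mouse on day 1 thus lay above every uninjured mouse.

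The share was higher still, on average, at the next time points. It was 12.4%, 12.5% and 10.4% in the 3 mice on day 2 and 13.6%, 13.4%, 12.1% and 14.2% in the 4 mice on day 3.5, when the mean was highest. On day 5 it was 10.5%, 6.08% and 5.84%, below every mouse on day 3.5, and on day 7 2.45%, 3.23% and 4.02%, below every mouse on day 5. The lower limit of the interval on day 7 was 2.07% in the mouse with the lowest share, so that all injured mice stayed above the uninjured ones beyond counting error.

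The means were 0.411% ± 0.203 (SD, n = 4) in uninjured mice, 8.49% ± 2.60 (n = 4) on day 1, 11.8% ± 1.22 (n = 3) on day 2, 13.3% ± 0.883 (n = 4) on day 3.5, 7.48% ± 2.64 (n = 3) on day 5 and 3.23% ± 0.787 (n = 3) on day 7. The largest difference from uninjured mice was 12.9 percentage points, on day 3.5. The share differed over the 6 time points when mice were permuted among the time points and F compared, after an arcsine square root transform (permutation test, p = 1e-05, the smallest that 100000 resamples can give, adjusted p = 5.75e-05 over 23 Harmony types). By this test 18 of the 23 types, or 78.3%, differed, so that a change with time was the rule among cell types.

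Ranked by share among the 23 types, the population stood at place 13 to 16 in uninjured mice, at place 2 or 3 in each mouse on day 3.5 and at place 7 to 10 on day 7. On day 1 it ranked lowest in mouse B, at place 7, whose library also had the fewest cells of the mice of day 1, 1197, and the lowest share of reads in cells, 47.7% compared with 79.0% to 91.8% in the others. Over the groups the share of reads in cells moved with that of the population, with means of 48.6% in uninjured mice (44.2% to 56.3%) and 76.1%, 86.7%, 94.6%, 83.3% and 71.6% on days 1, 2, 3.5, 5 and 7. The part of this library sign in the share of the population, over the groups or in mouse B, was not tested. Among myeloid cells alone the same mouse, at 13.2%, lay within the range of the other mice of day 1.

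Single time points were compared with edgeR's quasi-likelihood test on cell numbers, with Benjamini-Hochberg adjustment over all 23 types and 9 contrasts. Compared with uninjured mice, the share rose by 4.29 on the log2 scale on day 1 (adjusted p = 1.93e-08 in edgeR), where 56.5% of types passed the threshold. The rise was 4.76 on day 2 (edgeR, adjusted p = 7.51e-09; 78.3% of types passed) and 4.94 on day 3.5 (edgeR, adjusted p = 3.63e-09; 82.6% of types passed). It was still 4.10 on day 5 (edgeR, adjusted p = 5.77e-08; 56.5% of types passed) and 2.89 on day 7 (edgeR, adjusted p = 5.55e-06; 43.5% of types passed). For each of these 5 contrasts the mice did not overlap and the two-sided exact permutation p was 0.0286, the smallest that 4 against 4 or 4 against 3 mice allow. Adjusted over all types and contrasts the exact permutation p was 0.0749, so that none of the 9 contrasts passed, whereas over the 9 contrasts of this population alone it was 0.0429, and 6 passed, the step from day 3.5 to day 5 among them. With Scanorama labels, which give the name to other cells, the log2 difference was 0.85 on day 3.5, 1.27 on day 5 and 0.86 on day 7, and none of these passed in edgeR (adjusted p = 0.416, 0.221 and 0.448).

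Between successive time points the population changed less. The log2 difference was 0.47 from day 1 to day 2 (edgeR, adjusted p = 0.344, where 8.70% of types passed), 0.18 from day 2 to day 3.5 (edgeR, adjusted p = 0.747, 13.0% passed) and -0.83 from day 3.5 to day 5 (edgeR, adjusted p = 0.107, 17.4% passed), none of which passed. The difference from day 2 to day 3.5 reached 1.24 under an alternative processing, also without passing. From day 5 to day 7 the share fell by 1.21 on the log2 scale (edgeR, adjusted p = 0.0281), one of the 13.0% of types that passed. The call from day 5 to day 7 was lost without day 5 mouse A, day 7 mouse A or day 7 mouse B (adjusted p = 0.119, 0.0946 and 0.0697 in edgeR), with TMM normalization (0.123), with the replicate letter as a block (0.0611), with BBKNN labels (0.290) and with Scanorama labels (0.719), where the log2 difference was -0.41. By the exact permutation test it was lost too (adjusted p = 0.178), and 3 against 3 mice allow no p under 0.1. The step from day 3.5 to day 5 passed without day 5 mouse A (log2 difference -1.16, adjusted p = 0.0455 in edgeR) and with TMM (log2 difference -1.995, adjusted p = 0.00506 in edgeR).

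Among myeloid cells the time course was a different one. The population made up 21.2%, 25.3%, 30.3% and 18.2% of the myeloid cells of uninjured mice A to D, which held only 33, 91, 76 and 11 such cells. On day 1 its share was lower in every mouse, at 14.9%, 13.2%, 12.3% and 15.2%. It was 17.8%, 17.5% and 18.1% on day 2, above every mouse on day 1.

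Later values lay close together. They were 20.5%, 20.2%, 16.99% and 19.5% on day 3.5, 20.0%, 20.1% and 20.4% on day 5 and 22.6%, 19.9% and 19.6% on day 7. The share of myeloid cells differed over the time course (permutation test, p = 0.00038, n = 21), and its largest difference from uninjured mice was -9.81 points, on day 1 (adjusted p = 0.000665 over the 7 myeloid types, all of which passed). The direction was therefore opposite to that among all cells. The mice on day 1 overlapped neither the uninjured mice nor those on day 2 (two-sided exact permutation p = 0.0286 for each, 0.129 after adjustment over 9 contrasts).

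With all immune cells as the denominator, the share did not pass the test (permutation p = 0.141, adjusted p = 0.157), and its largest difference from uninjured mice was 3.24 points. When the population was at its lowest among myeloid cells, on day 1, patrolling monocytes were at 16.5% ± 3.19 (n = 4) of these cells, compared with 0.933% ± 1.25 (n = 4) before injury. Inflammatory monocytes were at 30.9% ± 3.31 beside 33.3% ± 15.9 before injury, and neutrophils at 18.8% ± 3.34 beside 15.1% ± 9.79. On days 2 and 3.5 the most frequent myeloid type was the patrolling monocyte, at 37.3% ± 2.82 (n = 3) and 36.8% ± 2.17 (n = 4). Cx3cr1-low cells were the most frequent myeloid type in only 1 mouse, uninjured C. Because shares sum to a whole, these values do not give the number of cells in the muscle.

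The balance between both M2 populations moved from Cx3cr1-low towards Cx3cr1-high cells. Of all M2 cells, the Cx3cr1-low share was 70.0%, 67.6% and 85.2% in uninjured mice A, B and C, from 10, 34 and 27 cells, whereas mouse D had only 3 M2 cells and was left out. It was 63.8%, 58.6%, 60.5% and 62.6% on day 1 and 63.5%, 64.4% and 57.1% on day 2. By the Harmony labels, Cx3cr1-low cells were thus in the majority in each of these mice.

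From day 3.5 the populations were close to equal in size by the Harmony labels. The Cx3cr1-low share of M2 cells was 49.3%, 51.2%, 46.6% and 47.4% on day 3.5, 45.2%, 47.9% and 48.0% on day 5 and 46.9%, 45.4% and 60.7% on day 7. Mouse C on day 7, with 150 M2 cells, was the only one of these 10 to lie within the range of the earlier time points. The means were 74.3% ± 9.52 (SD, n = 3) in uninjured mice, 61.4% ± 2.33 (n = 4) on day 1, 61.7% ± 3.99 (n = 3) on day 2, 48.6% ± 2.06 (n = 4) on day 3.5, 47.0% ± 1.60 (n = 3) on day 5 and 51.0% ± 8.42 (n = 3) on day 7.

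The balance differed over the time course (permutation test, p = 1e-05, the smallest that 100000 resamples can give, n = 20), and the largest difference from uninjured mice was -27.3 points, on day 5. With a minimum of 50 M2 cells only the 17 injured mice were compared, and the balance differed among them as well (permutation p = 0.00224). With BBKNN labels the share was 71.9% and 65.5% in uninjured mice B and C, and 82.4%, 38.1%, 63.2% and 86.7% on day 1. It was 44.1%, 50.9% and 30.2% on day 2, 11.8% to 43.7% on day 3.5, 14.1% to 16.96% on day 5 and 20.1% to 25.3% on day 7. The largest difference from uninjured mice was then -52.9 points (permutation p = 0.00131, n = 19). The majority no longer held in each mouse of days 1 and 2, and the later near equality did not hold. The step from day 2 to day 3.5 with Harmony labels was -13.0 points with no overlap of the mice (two-sided exact permutation p = 0.0286, the smallest possible, 0.0857 after adjustment over 9 contrasts). None of these 9 contrasts of the balance passed, and 0.0857 was the lowest adjusted p of the exact permutation tests.

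**Figure D1:**
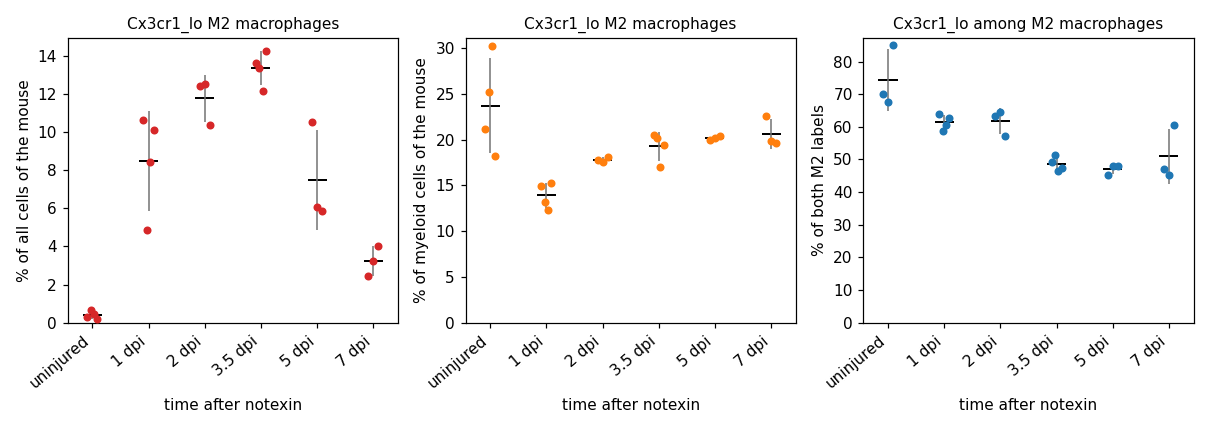
Cx3cr1-low M2 macrophages by time after notexin, as percent of all cells of the mouse (left), of its myeloid cells (middle) and of both M2 populations (right). Each point is 1 mouse, horizontal bars are means and vertical bars SDs; the share of all cells is highest on day 3.5, the share of myeloid cells is lowest on day 1, and the share of M2 cells is lower from day 3.5 on.

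Which cells are called Cx3cr1-low M2 macrophages depended on the integration method. The authors labelled the same cells separately after integration with BBKNN and with Scanorama. The paper judged Harmony the best of the 3 methods and reported that the names of subtypes varied between them. It also described strong variation of expression patterns among monocyte and macrophage subtypes. BBKNN gave 44.3% of the 7165 cells the same name, 23.3% that of infiltrating monocytes, 16.2% that of Cx3cr1-high M2 macrophages, 10.0% that of patrolling monocytes and 5.78% that of inflammatory monocytes. Scanorama gave the same name to only 3 of the cells (0.0419%). It called 52.3% patrolling, 25.6% infiltrating and 21.2% inflammatory monocytes, and 0.809% Cx3cr1-high M2 macrophages.

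The overlap was one-sided for BBKNN. Of the 3385 cells that BBKNN named Cx3cr1-low M2 macrophages, 93.8% had that name under Harmony, so the BBKNN population was nearly a subset of the Harmony one. Scanorama used the name for 286 cells, of which Harmony called 143 Cxcl10+ monocytes, 51 neutrophils, 44 capillary endothelial cells and 3 Cx3cr1-low M2 macrophages. The same name thus stood for different cells in these methods.

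The other names followed the time after injury. In Scanorama, inflammatory monocytes made up 90.9%, 74.1%, 83.2% and 91.0% of the Cx3cr1-low cells of the mice of day 1. On day 2 infiltrating monocytes made up 73.6%, 71.9% and 68.8%, and inflammatory monocytes 21.7% on average. From day 3.5 on, between 92.3% and 97.1% of the cells of each mouse were called patrolling monocytes, as were 87.0% and 91.3% in uninjured mice B and C, the only uninjured mice with at least 20 cells of the population. Scanorama's names therefore divided 1 Harmony population mainly by time point.

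BBKNN's names followed time as well, but less sharply. It named 82.6% of the cells in the same way in uninjured mice (mean, n = 2), 42.8% ± 13.3 (SD, n = 4) on day 1, 27.5% ± 2.37 (n = 3) on day 2, 55.6% ± 16.97 (n = 4) on day 3.5, 50.4% ± 1.81 (n = 3) on day 5 and 64.1% ± 3.50 (n = 3) on day 7. The remainder on day 1 was mostly called inflammatory monocytes, at 36.9% ± 8.40 (n = 4), and on day 2 infiltrating monocytes, at 61.4% ± 4.42 (n = 3). On day 3.5 26.6% ± 5.30 (n = 4) were called patrolling monocytes, and on days 5 and 7 46.0% ± 3.44 and 35.2% ± 3.12 (n = 3 each) were called Cx3cr1-high M2 macrophages. In uninjured mice B and C, 13.0% and 8.70% of the cells, from 23 cells each, were called dendritic cells.

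On day 3.5 mouse C stood apart. BBKNN gave 30.3% of its Cx3cr1-low cells the same name, compared with 66.2%, 63.4% and 62.7% in mice A, B and D, and 32.4% the name of Cx3cr1-high M2 macrophages, compared with 5.16%, 0.852% and 13.3%. This library had the most cells of its group, 6746, and the highest estimate of ambient RNA, a fraction of 0.047 compared with 0.018 to 0.033, and their part in the difference was not tested.

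The share of cells with the same name was tested over the time course in both directions for both methods, with adjustment over these 4 tests. Only the share of Harmony cells with the same BBKNN name passed, at 51.8% ± 18.2 (SD, n = 19 mice; permutation test, adjusted p = 0.00320). The 51.8% is a mean over mice. This call was lost with at least 50 cells per mouse (48.2%, adjusted p = 0.0512 in the permutation test) and with a stricter filter on cells (45.5%, adjusted p = 0.111). The reverse share, 92.6% ± 4.20 (n = 17), did not pass (permutation test, adjusted p = 0.303), and neither did those of Scanorama, 0.274% ± 0.999 (n = 19) and 0.538% (permutation tests with n = 19 and n = 6, adjusted p = 0.212 and 0.4997). The first Scanorama mean rests mostly on 1 of 23 cells in uninjured mouse B and was 0.0477% without that mouse. Its test passed without uninjured mouse C (permutation test, adjusted p = 0.0386). The second comes from day 2 mouse B alone, at 3.23%, with 0 in the other 5 mice. The distribution over the other names was described after it had been seen and was not tested.

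Some other Harmony populations showed a like succession of names. Of the Cx3cr1-high M2 macrophages, Scanorama called 73.4% inflammatory monocytes on day 1, 60.3% infiltrating monocytes on day 2 and 98.6%, 97.8% and 95.03% patrolling monocytes on days 3.5, 5 and 7. Of Harmony's patrolling monocytes it called 72.9% inflammatory on day 1, 97.8% infiltrating on day 2 and 91.9% patrolling on day 3.5. Cxcl10+ monocytes were called inflammatory (81.1%), infiltrating (51.2%) and patrolling (80.7%) on days 1, 2 and 3.5. Harmony's inflammatory monocytes followed in part, with 76.7% still called inflammatory and 20.2% infiltrating on day 2, and 65.1%, 67.3% and 39.1% called patrolling on days 3.5, 5 and 7. On day 7 more of them were called inflammatory than patrolling, at 46.0% on average. In BBKNN, on the other hand, the Cx3cr1-high cells came to share their name more and more up to day 5. The share was 14.2% on day 1, 96.0% on day 5 and 93.8% on day 7. Hardly any of them were named Cx3cr1-low by BBKNN, at most 1.21% on average at a time point.

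**Figure D2:**
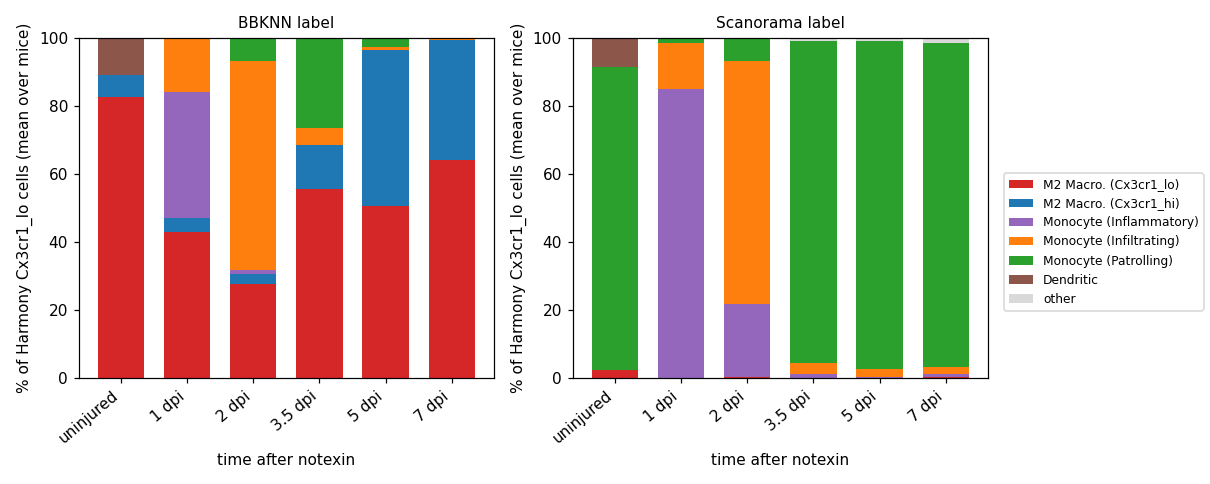
Names given by BBKNN (left) and Scanorama (right) to the cells that Harmony called Cx3cr1-low M2 macrophages, by time after notexin. Bar segments are mean percents over the mice with at least 20 such cells (2 uninjured mice, all injured mice), with no error bars; Scanorama's names change from inflammatory to infiltrating to patrolling monocytes, while BBKNN keeps the name for part of the cells at each time point.

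The RNA of the cells with this name also differed in composition between time points. Whether the same cells changed or other cells carried the name was not tested. The authors deposited for each cell the number of UMIs (unique molecular identifiers, 1 for each captured transcript), the number of genes and the percent of UMIs from sets of genes. Medians over the Cx3cr1-low cells of a mouse were compared in the 19 mice with at least 20 such cells. Of 11 measures that could be tested, 5 differed over the time course, with adjustment over 270 tests of types and measures. Only 2 uninjured mice entered, and with the 17 injured mice alone the same number of measures passed.

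Mitochondrial transcripts encode subunits of the respiratory chain, and a high share is also common in damaged cells. Their median share was 15.7% and 14.4% in uninjured mice B and C, the highest values of all. On day 1 it was 3.08%, 5.30%, 3.45% and 4.44%, on day 2 6.23%, 5.09% and 4.93%, and on day 3.5 6.45%, 6.16%, 4.07% and 5.34%. It was 4.73%, 5.11% and 6.17% on day 5 and 9.27%, 8.29% and 8.87% on day 7. The mice on day 7 lay above all other injured mice and below the uninjured ones.

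The mitochondrial share differed over the time course (permutation test, p = 1e-05, the smallest possible, adjusted p = 0.00045, n = 19), as it did in 39.1% of types. In the other cells of these mice the share was also highest before injury, with medians of 18.4% and 16.6% in uninjured mice B and C and means of 4.12% on day 1, 5.51% on day 2, 4.61% on day 3.5, 5.42% on day 5 and 6.97% on day 7. The part of this shared change in that of the Cx3cr1-low cells was not tested.

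The share of UMIs from the set "tf", read here as transcription factor genes, was highest on day 7. It was 3.63% and 3.73% in the uninjured mice, 3.46%, 3.36%, 3.25% and 3.05% on day 1, 3.27%, 2.95% and 2.86% on day 2 and 3.04%, 3.05%, 3.18% and 2.94% on day 3.5. It was 3.48%, 3.75% and 3.44% on day 5 and 4.21%, 4.43% and 4.08% on day 7. The values on day 7 thus lay above those of all other mice (permutation test over the time course, adjusted p = 0.00045, n = 19), and 56.5% of types differed in this measure. In the other cells the mean was likewise highest on day 7, at 4.38%, and lowest on day 3.5, at 2.86%.

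Ribosomal transcripts, which encode proteins of the ribosome, made up 7.24%, 7.20%, 8.86% and 8.77% on day 1, all below the values of the next 3 time points. Their share was 9.14%, 10.1% and 10.2% on day 2 and 10.7%, 10.96%, 9.98% and 11.1% on day 3.5. It was 10.1%, 10.5% and 10.5% on day 5 and 8.29%, 8.82% and 8.78% on day 7. The uninjured mice, at 8.95% and 11.8%, spanned most of this range, and after injury the mean was highest on day 3.5. The ribosomal share differed over the time course (permutation test, adjusted p = 0.0163, n = 19), as in 47.8% of types. In the other cells the highest mean was 12.3%, on day 5.

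Transcripts of protein-coding genes made up 90.0% ± 0.947 (SD, n = 2) in uninjured mice, 93.8% ± 1.20 (n = 4) on day 1, 93.5% ± 0.0801 (n = 3) on day 2, 93.6% ± 0.626 (n = 4) on day 3.5, 91.2% ± 1.15 (n = 3) on day 5 and 90.1% ± 0.874 (n = 3) on day 7 (permutation test, adjusted p = 0.00506, n = 19), and 56.5% of types differed. Their share was thus higher up to day 3.5 than before injury or on day 7. The other cells were at 89.8% and 86.8% in uninjured mice B and C, and at 94.3% on day 3.5 and 90.2% on day 7 on average.

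The last of the 5 was the doublet score, the fraction of artificial doublets among a cell's neighbours. It averaged 0.303 ± 0.0668 (SD, n = 2) without injury, 0.204 ± 0.0411 (n = 4) on day 1, 0.203 ± 0.0128 (n = 3) on day 2, 0.171 ± 0.0189 (n = 4) on day 3.5, 0.177 ± 0.0652 (n = 3) on day 5 and 0.0683 ± 0.0316 (n = 3) on day 7 (permutation test, adjusted p = 0.00347, n = 19), and 26.1% of types differed. In the other cells the score was likewise lowest on average on day 7 among the times after injury, at 0.103, but uninjured mice B and C, at 0.0857 and 0.216, lay below and above the means of days 1 to 5.

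The depth of the cells varied strongly between mice. On day 2 the median was 4547 UMIs in mouse A, 9884 in B and 14903 in C, beside 15035, 34812 and 57751 reads per cell in these libraries. Over the groups it was 5818 ± 379 (SD, n = 2) in uninjured mice, 10556 ± 2396 (n = 4) on day 1, 9778 ± 5179 (n = 3) on day 2, 11176 ± 2192 (n = 4) on day 3.5, 7058 ± 1708 (n = 3) on day 5 and 5538 ± 449 (n = 3) on day 7. The median number of genes was 1904 ± 29.0 (n = 2), 2975 ± 344 (n = 4), 2796 ± 920 (n = 3), 3037 ± 335 (n = 4), 2340 ± 366 (n = 3) and 2019 ± 118 (n = 3) at the same times.

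Neither UMIs nor genes passed the test on the log2 scale (permutation tests, adjusted p = 0.118 and 0.0727, n = 19; 21.7% and 26.1% of types differed). Without day 2 mouse A both passed (adjusted p = 0.0146 and 0.00731, permutation tests), and genes also passed without day 2 mouse C (0.0355) and when divided by the sequencing saturation (0.0148). Within a mouse the cells were spread widely, with a middle range of 8619 to 16132 UMIs in day 1 mouse A and of 2926 to 7904 in day 7 mouse A (lower and upper quartile). Among cells with 5000 to 10000 UMIs, in mice with at least 10 of them, the number of genes was 1943 in uninjured mice, 2492 on day 1, 2451 on day 2, 2501 on day 3.5, 2392 on day 5 and 2415 on day 7, so that cells of like depth held fewer genes before injury. The uninjured value rests on few cells and was not tested.

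The composition of the RNA was also compared at like depth. When only cells with 5000 to 10000 UMIs were kept, 16 mice, none of them uninjured, reached 20 cells, and none of the 5 measures passed in the permutation test. The difference of day 7 from day 1 was then 3.06 points for the mitochondrial share (adjusted p = 0.251), compared with 4.75 in all cells, 0.62 points for transcription factors (adjusted p = 0.0714) and -4.06 points for protein-coding genes (adjusted p = 0.0731), compared with 0.96 and -3.72. It was 1.24 points for ribosomal transcripts (adjusted p = 0.0714, permutation test) and -0.123 for the doublet score (0.0785), compared with 0.62 and -0.135. Fewer mice and cells entered, and the part of depth was not told apart from this.

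Of the remaining sets, the set "hsp", read here as heat shock genes, had its highest mean in uninjured mice, at 0.918% ± 0.323 (SD, n = 2), and its lowest on day 3.5, at 0.546% ± 0.0173 (n = 4), but did not pass (permutation test, adjusted p = 0.109; 26.1% of types differed). It passed without uninjured mouse B or day 5 mouse A (adjusted p = 0.0251 and 0.0414, permutation tests). Long intergenic noncoding RNAs were at 1.66% ± 0.0296 (n = 2) in uninjured mice and between 1.05% and 1.24% on average after injury (permutation test, adjusted p = 0.109; 34.8% of types differed). Antisense transcripts (adjusted p = 0.389; 13.0% of types differed) and the set named bplncRNA (adjusted p = 0.579; 18.2% of types differed) did not pass in the permutation test either, and had mean shares below 0.07% and 0.012%. Small nucleolar, small nuclear and micro RNAs had a median of 0 in each of the 19 mice and gave no test.

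**Figure D3:**
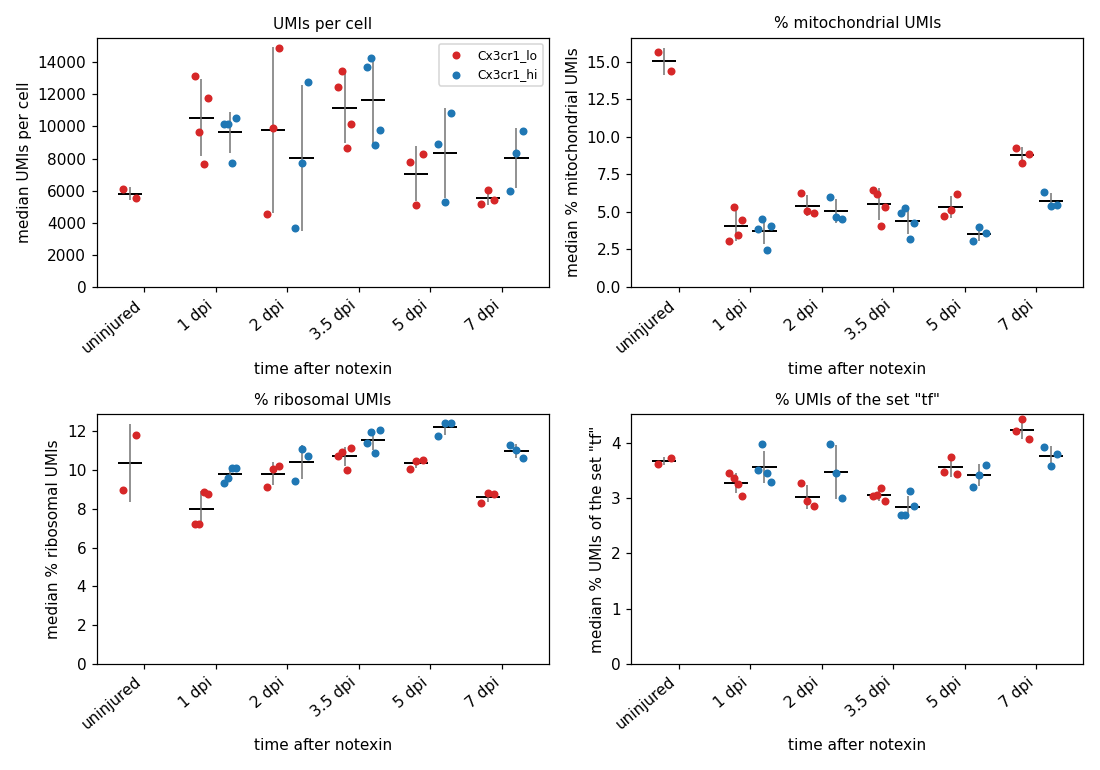
Medians over cells of UMIs per cell and of the percent of UMIs from mitochondrial genes, ribosomal genes and the set "tf", by time after notexin, for Cx3cr1-low (red) and Cx3cr1-high (blue) M2 macrophages. Each point is a mouse with at least 20 cells of the type, horizontal bars are means and vertical bars SDs; mitochondrial and "tf" shares of Cx3cr1-low cells are higher on day 7 than at the other times after injury.

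Compared with the Cx3cr1-high M2 macrophages of the same mice, Cx3cr1-low cells held less ribosomal and more mitochondrial RNA. In the 17 injured mice the ribosomal median was 9.48% in Cx3cr1-low and 10.96% in Cx3cr1-high cells on average, and it was lower in Cx3cr1-low cells in 17 of 17 mice. The mitochondrial median was 5.71% and 4.45%, and it was higher in Cx3cr1-low cells in 16 of 17. This gap was 0.34 points on day 1, 0.36 on day 2, 1.11 on day 3.5, 1.78 on day 5 and 3.07 on day 7. Since the populations were set apart by clustering their RNA, these differences describe them and were not tested.

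The UMIs per cell and the transcription factor share differed between both populations in a way that depended on time. UMIs per cell were higher in Cx3cr1-low cells in all 3 mice on day 2, by 1734 on average, but lower in all 3 on day 5 and all 3 on day 7. The transcription factor share was lower in Cx3cr1-low cells in all 4 mice on day 1 and all 3 on day 2, but higher in all 4 on day 3.5, 2 of 3 on day 5 and all 3 on day 7. Long intergenic noncoding RNAs were at 1.15% in Cx3cr1-low and 1.35% in Cx3cr1-high cells, and lower in Cx3cr1-low cells in 16 of 17 mice.

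Within the population, cells that BBKNN named otherwise also differed from those it named in the same way. Cells called infiltrating monocytes had a median of 1.52 times as many UMIs (over 7 mice), those called patrolling monocytes 1.53 times (7 mice), those called Cx3cr1-high M2 macrophages 1.27 times (10 mice) and those called inflammatory monocytes 1.03 times (4 mice), each in every mouse compared. Their mitochondrial share was lower in all 7, all 7, 9 of 10 and all 4 mice, with means of 4.35% against 5.60%, 5.04% against 6.23%, 5.37% against 7.21% and 3.76% against 4.89%. The cells on which both methods gave the same name were thus those with fewer UMIs and more mitochondrial RNA. The part of depth in the names was not tested.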

How the data were processed

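For each of 21 samples, a table with 1 line per cell was used (10x Chromium v3). Before depositing them, the authors aligned reads to mm10 (Cell Ranger 3.1.0 and Seurat 3.1.5 in the submitters' notes), removed ambient RNA with SoupX, filtered cells, removed doublets with DoubletFinder and labelled cells after Harmony, BBKNN and Scanorama. The deposited UMI totals per cell are expected counts, not whole after the ambient correction. The genes per cell and reads per cell are counts that the authors deposited. The deposited percent values are shares of a cell's UMIs from gene sets and, per sample, saturation and reads in cells. The deposited fraction values are the ambient share of a sample and the doublet score of a cell.

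From these, cells were counted per mouse, which was the unit of every test, with Python 3.11.15, numpy 2.4.6, pandas 2.3.3, scipy 1.17.1 and matplotlib 3.10.9. No further filter on cells was applied. Depth lay between 15035 and 117596 reads per cell, and the mice held between 2 and 1313 cells of the population. Permutation tests used 100000 resamples of the F statistic (smallest p 1e-05). edgeR 4.0.16 (R 4.3.3) was run on cell numbers per type, with the total of cells as library size, no TMM and 1 dispersion estimate without trend, and types with under 5 cells in all were left out, which affected no Harmony type. The Benjamini-Hochberg threshold was 0.05. At least 10 M2 cells were needed for the balance of both M2 populations, and 20 cells for medians and names. The tests were also run on simulated data with known answers. Fewer types changed in these than here, so that run does not show how the tests behave on the real shares. The text names every gene set, every time point, the other myeloid types as neighbours and each BBKNN or Scanorama name given to at least 5% of the population. No gene was tested.

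The members and lists were chosen with earlier results of these data known. Exact tests of the M2 balance and of the share of myeloid cells between time points, the names other than the same one, the comparison with Cx3cr1-high cells, the division by BBKNN name and the value by which alternatives were compared (the largest difference from uninjured mice, the difference of 7 dpi from 1 dpi, or the number of calls) were chosen after seeing the data. Alternatives were other labels, denominators, transforms, tests, minimums and filters (a minimum of 1000 genes and 2000 UMIs, with no more than 15% of them mitochondrial), cells of 5000 to 10000 UMIs, a block for the replicate letter, and each mouse left out. Values of single genes were not used here. The meanings of the sets "tf" and "hsp" were read from their names and from the gene sets described in the paper.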

Additional observations from a re-analysis of the deposited data

Results flagged for a closer look

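In 4 of 47 groups of 4 mice that were checked, a single mouse lay far from the others. The rule flags about 1 in 20 groups by chance when values are continuous and groups independent. These groups shared mice, and some values were 0 in all mice but 1, so 4 of 47 cannot be read as an excess. BBKNN gave 30.3% of the Cx3cr1-low cells of day 3.5 mouse C the same name, while the other mice lay between 62.7% and 66.2%. The other 3 cases rest on single cells: BBKNN called 0.262% of the Cx3cr1-low cells of day 1 mouse C dendritic cells and another 0.262% patrolling monocytes, and 0.122% of those of day 3.5 mouse C dendritic cells, with 0% in the other mice of each group.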

How the results depend on the processing

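The share differed over the time course, with a rise as its largest difference from uninjured mice, under 11 of 13 alternatives and without any 1 mouse. The tests themselves have no direction. With Scanorama labels the name covers 286 cells, of which only 3 belong to this population. The largest difference was 0.576 (these Scanorama labels) to 13.5 points, and 12.6 to 13.3 points without 1 mouse. Among immune cells it was 3.24 points and did not pass, and among myeloid cells it was reversed, at -9.81 points. The test of the M2 balance over the time course, which has no direction, passed under each alternative that gave a value. The largest difference from uninjured mice was then -52.9 points (BBKNN labels) to -27.3, and -30.6 to -21.8 without 1 mouse. Scanorama labels and a minimum of 50 M2 cells gave none, since no uninjured mouse reached the minimum. With Scanorama labels the Cx3cr1-low share of M2 cells was 12.7% to 36.0% on day 1 and higher in every mouse of day 2, at 44.3% to 57.3%. It was 3.45% to 52.6% on day 3.5, 3.70% to 38.2% on day 5 and 26.7% to 43.5% on day 7. Of 9 contrasts, 6 passed in the main result, 5 to 6 without 1 mouse, 2 with Scanorama labels, where day 3.5 (log2 0.85), day 5 (1.27) and day 7 (0.86) against uninjured and day 7 against day 5 (-0.41) were lost, and 0 by the exact test adjusted over all types. The smallest exact p is 0.0286, or 0.1 for 3 against 3 mice. Without passing, the log2 difference was reversed from day 1 to day 2 with BBKNN (-0.33) and Scanorama (-0.53) labels, from day 2 to day 3.5 with Scanorama (-1.38) and from day 3.5 to day 5 with Scanorama (0.42). The cause was not tested.

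Of the measures, 5 to 7 passed without 1 mouse and 0 among cells of 5000 to 10000 UMIs, with fewer mice. The difference of day 7 from day 1 was reversed for heat shock genes as a mean over cells (0.0285 points), for ribosomal genes in cells that BBKNN names alike (-0.0739) and for long intergenic noncoding RNAs without day 7 mouse C (-0.00352), which were 0.171 points without day 1 mouse B. The share with the same BBKNN name was 48.2% with at least 50 cells and 45.5% with the stricter filter, neither past the threshold, and 49.9% to 53.3% without 1 mouse. The reverse share was 92.2% to 93.0% without 1 mouse and 92.9% to 94.1% otherwise. For Scanorama the shares were 0.0477% to 0.289% without 1 mouse, passing without uninjured mouse C (0.289%), and 0.538% to 0.645%, and otherwise 0.0419% to 0.274% and 0.556% to 1.32%. For the last share, the minimum of 50 cells gave no value, and without day 2 mouse B it was 0 in each mouse, so no test was possible.

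The replicate letter as a block kept the calls for the time course, the M2 balance and the 5 measures, and moved the count of contrasts from 6 to 5: from day 5 to day 7 the adjusted p was 0.0611 in edgeR and the log2 difference -1.19. Mice with the same letter did not vary together on average (mean r = -0.0172 over 48 pairs, 20 of them over 0.1, and 4 of 21 mice closest to their own letter), so the letters were used as names. The paper states that mice of several time points were collected on the same day. Collection days are not part of the labels used here, and their effect was not tested. Few cells limit the uninjured mice, of which only B and C reached 20.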
